A study of Mus musculus with 74 samples.

Results

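The 9 genes described here encode subunits of voltage-gated sodium channels, 6 pore-forming alpha subunits (Scn1a, Scn3a, Scn8a, Scn9a, Scn10a and Scn11a) and 3 auxiliary beta subunits (Scn2b, Scn3b and Scn4b). They were chosen by name and not by their values, and all 9 were found among the 53379 genes counted in every library. RNA-seq was performed on whole L4 dorsal root ganglion (DRG) of female C57BL/6 mice aged 10 to 12 weeks. Of these mice, 4 were uninjured and 4 were taken 1 day after spinal cord injury (SCI). The SCI was a transverse cut of the dorsal column at thoracic level. RNA-seq was also performed on YFP-positive cells sorted from L4 DRG of female Thy1YFP16 mice aged 10 to 20 weeks, 6 of them naive. The naive mice were labelled day 1 or day 3 and were pooled. The injured mice were 4 in each of 4 groups, taken at day 1 or day 3 after a crush of the sciatic nerve (SNI) or after SCI. Each mouse gave 3 wells of about 100 cells. Sorted samples carry the label prefix FACS (4 naive mice, 2 in each injured group) or FACS2018 (2 naive mice, 2 in each injured group). What separates these 2 sets is not given in the labels. The labels call these cells dorsal column sensory neurons, and the YFP is driven by a Thy1 transgene that all sorted groups carry. The question addressed was how an injury to the central or to the peripheral axon branch changes gene expression in DRG neurons.

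Alpha subunits form the pore through which sodium enters to fire the action potential, and beta subunits bind to them and alter their gating and surface level. Among DRG neurons, large myelinated mechanoreceptors and proprioceptors are known for Scn1a (Nav1.1) and Scn8a (Nav1.6), the latter concentrated at nodes of Ranvier, whereas nociceptors are known for Scn9a (Nav1.7), Scn10a (Nav1.8) and Scn11a (Nav1.9). Scn10a and Scn11a encode the channels that resist tetrodotoxin, and Scn3a (Nav1.3) is an embryonic form known to reappear in axotomized DRG neurons.

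In the GENCODE vM21 annotation of GRCm38, Scn3a (chr2:65457118-65567627), Scn1a (chr2:66270778-66440840) and Scn9a (chr2:66480080-66634962) lie on the minus strand of one stretch of chromosome 2. Scn10a (chr9:119608456-119719322) and Scn11a (chr9:119753759-119825456) are neighbours on the minus strand of chromosome 9, where Scn2b (chr9:45117782-45130070), Scn4b (chr9:45138395-45154152) and Scn3b (chr9:40269217-40291618) lie on the plus strand. Scn8a (chr15:100869858-101045938) is on the plus strand of chromosome 15. The antisense gene Gm13629 shares 180 exon bases with Scn9a and held 17884 reads over all libraries against 420962 for Scn9a. Whether counting used strand is not given in the sources used here.

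RefSeq promoter windows of GRCm38.p6, from 250 bases before to 50 after a gene's start, were matched for 7 of the 9 genes, with none for Scn3a and Scn3b. The windows of Scn10a, Scn11a and Scn2b are shown because these 3 genes moved together from well to well of the sorted cells, and that of Scn8a because it was read in every well that was not glia-rich, as described further on. Each is written 5′ to 3′ with capitals marking CpG dinucleotides.
Scn10a, chr9:119718983-119719282, minus strand: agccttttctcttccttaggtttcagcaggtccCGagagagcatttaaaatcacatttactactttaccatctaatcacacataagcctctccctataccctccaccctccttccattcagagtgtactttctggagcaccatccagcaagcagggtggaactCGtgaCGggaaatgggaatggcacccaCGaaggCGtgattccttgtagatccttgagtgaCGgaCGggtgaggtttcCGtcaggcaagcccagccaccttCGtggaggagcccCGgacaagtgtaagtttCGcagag
Scn11a, chr9:119825407-119825706, minus strand: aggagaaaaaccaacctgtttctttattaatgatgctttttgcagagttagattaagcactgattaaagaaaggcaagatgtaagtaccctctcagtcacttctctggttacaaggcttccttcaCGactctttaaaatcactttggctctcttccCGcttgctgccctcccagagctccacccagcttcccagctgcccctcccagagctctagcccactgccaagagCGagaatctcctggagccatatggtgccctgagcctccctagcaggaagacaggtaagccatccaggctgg
Scn2b, chr9:45117626-45117925, plus strand: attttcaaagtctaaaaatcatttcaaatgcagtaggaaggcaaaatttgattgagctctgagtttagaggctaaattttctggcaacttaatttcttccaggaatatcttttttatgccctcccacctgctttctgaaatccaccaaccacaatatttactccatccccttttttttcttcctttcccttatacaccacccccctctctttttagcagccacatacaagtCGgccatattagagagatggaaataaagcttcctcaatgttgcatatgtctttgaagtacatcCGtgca
Scn8a, chr15:100870395-100870694, plus strand: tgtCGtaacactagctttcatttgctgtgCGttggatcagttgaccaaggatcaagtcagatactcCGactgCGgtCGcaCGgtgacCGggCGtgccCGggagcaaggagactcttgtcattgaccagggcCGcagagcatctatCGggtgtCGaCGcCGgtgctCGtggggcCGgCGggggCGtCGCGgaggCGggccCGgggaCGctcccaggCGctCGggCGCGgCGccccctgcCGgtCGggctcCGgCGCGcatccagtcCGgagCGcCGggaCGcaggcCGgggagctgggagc

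Scn8a has 2 windows, and the first, shown here, held 38 CpG and 70.0% G or C, while the second (chr15:100936021-100936320) held 12 CpG and 53.3%. The Scn4b window held 26 CpG and 66.3%. Those of Scn1a and Scn9a, also read in nearly every neuronal well, held 5 and 9 CpG and 47.3% and 57.3%. The windows of Scn2b, Scn11a and Scn10a held 2, 3 and 11 CpG and 38.3%, 50.3% and 51.7% G or C. The medians over all 32851 windows were 7 CpG and 52.7%. The motifs searched on both strands, none of which contains another, were the CRE (TGACGTCA), the AP-1 site (TGACTCA), the TATA box (TATAAA) and the GC box (GGGCGG). They are present in 1.79%, 5.20%, 13.6% and 35.7% of all windows, and none of the members' windows held any of these exact letters.

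Depth and cell content differed between libraries and touch every result in the sorted cells. Reads on genes ranged from 21959030 to 44493319 per mouse in whole DRG, from 30518187 to 83599972 per mouse in sorted cells and from 1494217 to 49015375 per well. In 20 of 66 wells a list of 9 satellite glia and Schwann cell genes held 3.18% to 14.2% of reads, against 0.166% to 1.28% in the other 46, and these wells are called glia-rich. A list of 7 neuronal genes held a median of 0.0432% of reads in glia-rich wells (0.00719% to 1.60%) and 3.05% in the others (1.04% to 3.71%), against 1.71% to 1.90% in uninjured whole DRG. The neuronal label thus had low marker levels in most glia-rich wells, although the highest of them overlapped the other wells. They were found in 14 mice, and 2 mice (1 at SNI 3d and 1 at SCI 3d, both of the FACS2018 set) had no other wells. The 3 wells of this SCI 3d mouse were also rich in a list of 4 fibroblast genes, at 4.28%, 5.72% and 2.89% of reads. That list held a median of 0.0199% over all glia-rich wells and at most 0.189% in the other wells. In 1 glia-rich well of a naive mouse red blood cell genes held 1.26%. The glia list held 0.394% to 7.32% of reads in naive mice. After SNI it held 0.400% to 3.50% at day 1 and 0.392% to 8.06% at day 3, and after SCI 0.755% to 4.71% and 0.322% to 4.2%, and no gene of it was at 0 in any group. A log2 fold change of a member in the sorted cells is therefore given both with and without the glia-rich wells where its call or its sign differed between the 2 fits. The part of glial, fibroblast and red blood cell reads in these results was not tested. In bulk samples, fewer cells of a type and less RNA per cell cannot be told apart.

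In whole DRG Scn4b was the highest and Scn3a the lowest of the subunits. Levels were compared between genes as CPM per kb, that is counts scaled to the TMM library size (CPM) and divided by the length of the exons. In uninjured mice Scn4b, a beta subunit linked to resurgent current, was highest at a median of 151 CPM per kb (142.9 to 203, n = 4). The tetrodotoxin-resistant Scn10a at 75.0 (72.6 to 83.8) and Scn11a at 70.3 (63.0 to 79.9) followed, and their ranges overlapped. Scn9a was next at 38.8 (36.8 to 40.2). Scn1a at 31.0 (30.5 to 35.3) and the beta subunit Scn2b at 24.3 (23.8 to 33.5) overlapped each other. Scn8a stood at 17.7 (17.3 to 22), Scn3b at 13.1 (12.8 to 14.1), and Scn3a was lowest at 0.686 (0.667 to 0.746). Apart from Scn10a with Scn11a and Scn1a with Scn2b, neighbours in this order did not overlap between mice.

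The naive sorted cells had another order, shown in the plot of levels per length. Scn2b was highest by median at 40.5 CPM per kb, with a range of 0.0399 to 176 over 6 mice, followed by Scn1a at 21.0 (0.0790 to 37.5), Scn4b at 13.3 (0.0556 to 25), Scn9a at 10.5 (1.77 to 41.4) and Scn8a at 10.3 (0.876 to 13.1). Scn10a had a median of 7.04 and Scn11a of 4.03, with lowest values of 0 and 0.00313. Scn3b was at 1.72 and Scn3a at 0.230. All neighbours in this order overlapped. Whole DRG libraries were made from rRNA-depleted RNA and sorted libraries with an ultra-low-input kit, so these orders stand side by side without a test.

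**Figure D1:**
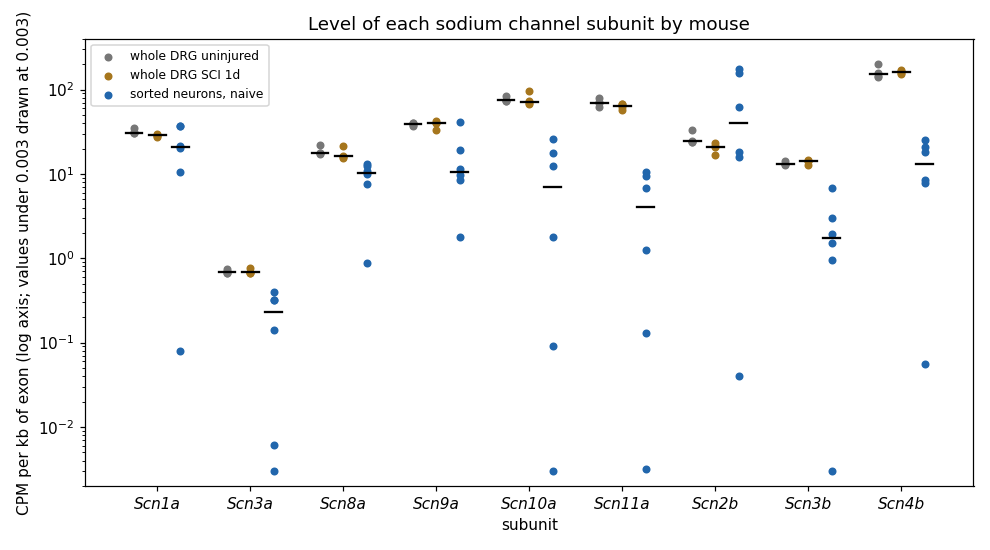
Level of each subunit in CPM per kb of exon (log axis) in single mice of whole DRG (4 uninjured, 4 at SCI 1d) and naive sorted neurons (6), with a bar at each median and values under 0.003 drawn at 0.003. Whole DRG mice cluster tightly around medians of 151 and 162 for Scn4b and 0.686 and 0.679 for Scn3a, whereas naive sorted mice spread over several orders of magnitude for Scn10a, Scn11a and Scn2b.

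One day after SCI, none of the 9 subunits changed in whole DRG at an adjusted p under 0.1 in the quasi-likelihood F-test of edgeR, where 2.32% of the 17616 genes tested were called, and DESeq2 called none of the 9 with 5.27% of genes called. Scn2b and Scn1a, both lower, were the 2 members with an unadjusted p under 0.05, against 14.6% of all genes. The median log2 fold change of the 9 was 0.0017, and that of all genes 0.014. The injury response itself was present, as Atf3, a transcription factor induced by axon injury, rose by 2.39 on the log2 scale (SE 0.274, edgeR adjusted p = 0.00431).

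Scn2b, which binds alpha subunits by a disulfide bond and raises their surface level, was read at 156, 111, 114 and 113 CPM in uninjured mice 1 to 4 and at 99.7, 96.7, 78.1 and 107.6 CPM in SCI mice 1 to 4. All 4 SCI mice lay below all 4 uninjured mice, with uninjured mouse 1 far above its group. The log2 fold change was -0.37 (SE 0.129, edgeR unadjusted p = 0.0164, adjusted p = 0.223).

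Scn1a was read at 393, 340, 344 and 347 CPM in uninjured mice and at 324, 303, 314 and 335 CPM after SCI. Here too the groups did not overlap and uninjured mouse 1 was the highest of the 8. The log2 fold change was -0.16 (SE 0.0663, edgeR unadjusted p = 0.0369, adjusted p = 0.303). Such a full separation with SCI lower was seen for 6.07% of all genes tested, beside these 2 of 9 members.

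The other alpha subunits overlapped between groups. Scn8a was at 348, 273, 278 and 279.9 CPM in uninjured mice and at 258, 246, 335 and 252 after SCI, with 1 high mouse in each group (log2 fold change -0.11, SE 0.114). Scn9a lay between 470 and 514 CPM in uninjured mice and between 426 and 539 after SCI. Scn10a was at 667, 606, 579 and 589 CPM in uninjured mice and at 585, 539.6, 774 and 550.3 after SCI, SCI mouse 3 standing highest. Scn11a was at 474, 415, 373 and 419 CPM against 370.1, 341, 398 and 400.2 after SCI, with uninjured mouse 3 inside the SCI range (log2 fold change -0.15, SE 0.0831, edgeR unadjusted p = 0.091, adjusted p = 0.431). Scn3a was low and level, between 8.31 and 9.30 CPM in uninjured mice and between 8.28 and 9.66 after SCI.

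Of the other beta subunits, Scn3b was at 69.9 to 76.9 CPM in uninjured mice and 69.6 to 79.3 after SCI. Scn4b was at 1014, 782, 724 and 712 CPM in uninjured mice and at 828, 783, 859 and 765 after SCI, with overlapping groups (log2 fold change 0.0017, SE 0.107). Red blood cell genes rose in the same comparison, 4 of 4 called, and held 0.00117% to 0.00184% of reads in uninjured and 0.00190% to 0.00805% in SCI mice. Glia genes held 0.656% to 0.713% and 0.556% to 0.700%, and nociceptor genes 0.205% to 0.263% and 0.223% to 0.273%, in uninjured and SCI mice. Of the mechanoreceptor list 0 of 3 genes were called and 2 had an unadjusted p under 0.05 (median log2 fold change -0.24), and it held 0.0522% to 0.0560% and 0.0452% to 0.0714% of reads. Of 4 fibroblast genes 1 was called lower and 3 had an unadjusted p under 0.05 (median -0.46), of 9 glia genes 0 and 4 (median -0.13), and of 6 nociceptor genes 1 was called lower. Their part in the values of Scn1a and Scn2b was not tested.

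**Figure D2:**
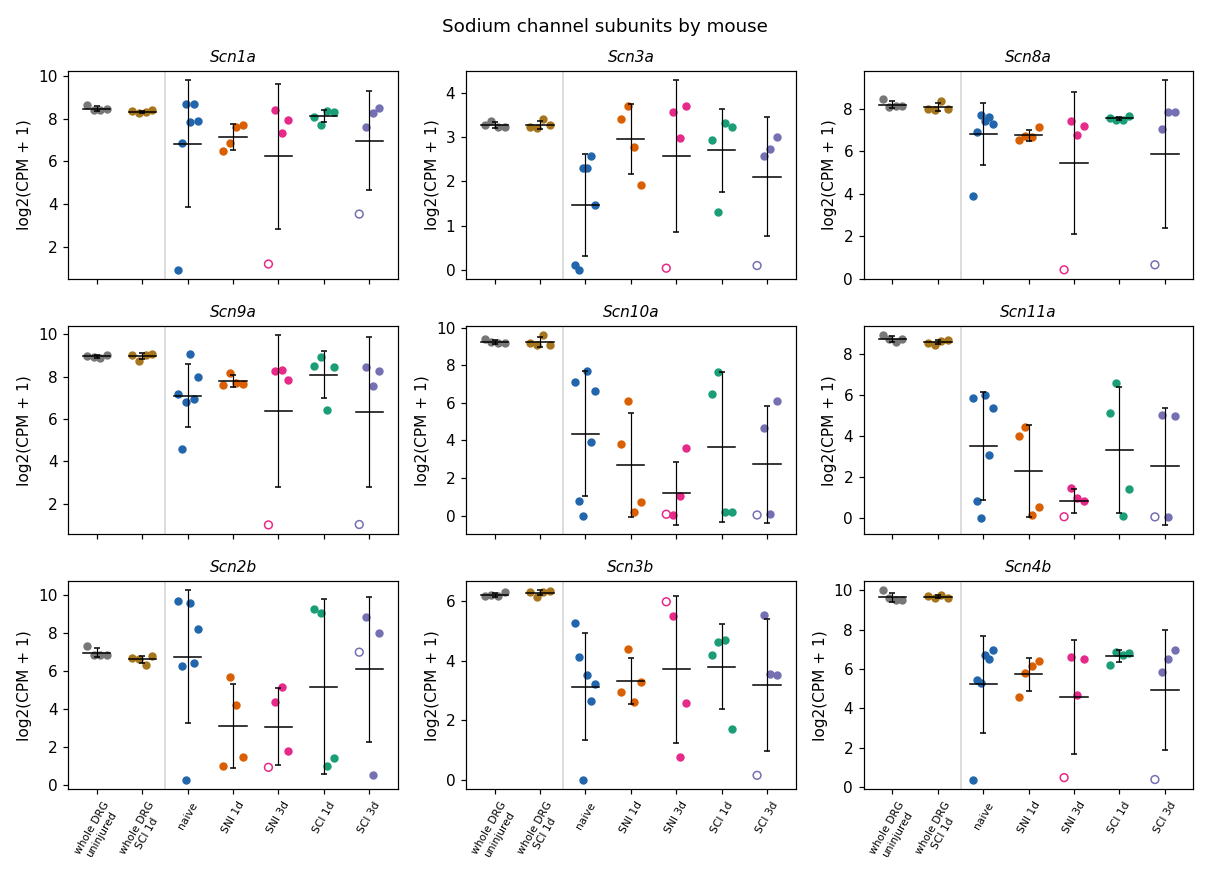
Each subunit by mouse as log2(CPM + 1) in whole DRG (left of the grey line) and sorted neurons (right of it), with the mean and SD of each group as bars, and open circles for the 2 mice that had glia-rich wells only. Whole DRG groups are tight and overlap or nearly touch, whereas Scn10a, Scn11a and Scn2b in sorted neurons range from under 1 CPM to 31.1 CPM or more within the naive, SCI 1d or SCI 3d group.

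In sorted neurons the subunits fell into those read in nearly every neuronal well and those read in only some. Over the 46 wells that were not glia-rich, Scn8a lay between 21.4 and 340 CPM (median 197) and Scn9a between 26.3 and 805 (median 269). Scn1a was at or above 10 CPM in 45 wells, the exception holding 0.620 (median 295), and Scn4b was at or above 10 CPM in 43 wells (median 98.6). Scn10a had a median of 0.399 and a highest value of 381 CPM, Scn11a 0.351 and 167, and Scn2b 2.15 and 1902. Scn3b was at or above 10 CPM in 24 wells (median 11.3) and Scn3a in 15 (median 6.93).

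Scn10a separated the wells with a gap, since no neuronal well held between 1.10 and 20.3 CPM. A limit of 10 CPM within that gap, set after the values were seen, left 16 wells of 11 mice with Scn10a and 30 wells of 18 mice without. In the 16 wells Scn11a had a median of 80.2 CPM, Scn9a 518 and Scn2b 508, and in the 30 wells 0.118, 191 and 1.16. Scn1a, Scn8a and Scn4b had medians of 222, 201 and 113 CPM with Scn10a and 350.3, 192 and 84.7 without. Nociceptor genes held a median of 0.435% of reads with Scn10a and 0.00829% without, and only 1 of the 16 wells, from a naive mouse, was without Scn1a, at 0.620 CPM.

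The subunits' likeness over these 46 wells, as Pearson correlation of log2(CPM + 1), followed the same division. Scn10a and Scn11a correlated at 0.94, Scn10a and Scn2b at 0.86, and Scn11a and Scn2b at 0.85. Scn1a and Scn8a correlated at 0.84, and each with Scn4b at 0.59 and 0.58. By Spearman rank correlation these 3 values were 0.62, 0.32 and 0.42, and Scn10a with Scn4b was at 0.31. By rank, Scn4b was thus about as close to Scn10a as to Scn1a. In 1 naive well Scn1a, Scn8a and Scn4b were all low, at 0.620, 21.4 and 0.207 CPM. Between the divisions, Scn1a and Scn10a correlated at -0.40 and Scn8a and Scn10a at -0.14, while Scn9a correlated at 0.56 with Scn10a and at -0.23 with Scn1a. Wells of 1 mouse share their source and differ in depth, so these values describe the wells and carry no test.

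Among 8140 genes with a mean of at least 10 CPM in these wells, the most alike to Scn10a were Ptgir (0.95), a prostacyclin receptor, Calca (0.95), which encodes CGRP, and the peptide gene Nmb (0.95). For Scn11a they were Scn10a (0.94), Calca (0.91) and Camk2a (0.91), and for Scn2b they were Ptgir (0.91), Smpd3 (0.90) and Serpinb1b (0.89). Scn1a was most like the calcium pump gene Atp2b2 (0.89), the vesicle fusion gene Vamp1 (0.89) and Sv2b (0.88), and Scn8a most like Scn1a (0.84), Vamp1 (0.81) and Rimkla (0.81). Scn4b had Fbxo31 (0.80), Sv2b (0.78) and Lgi3 (0.77), Scn9a had Camk2d (0.81), Dclk1 (0.81) and Plxna4 (0.79), Scn3b had Scg2 (0.76), Tspan2 (0.64) and Gstt1 (0.60), and Scn3a had Ttc17 (0.68), Tmem168 (0.64) and Trim33 (0.63).

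In the 20 glia-rich wells most subunits were near 0. Medians were 0.920 CPM for Scn1a, 0.746 for Scn8a, 1.45 for Scn9a, 0.375 for Scn10a, 0.109 for Scn11a, 0.0423 for Scn3a, 0.134 for Scn3b and 0.357 for Scn4b. Scn2b, at a median of 1.14, still reached 340 CPM and was at or above 10 CPM in 6 of these wells, and Scn3b reached 110.04 in one of the 2 where it was above 10. Scn1a reached 53.4 CPM, Scn8a 46.9, Scn4b 21.4, Scn9a 17.7 and Scn10a 12.4, all in 1 well of FACS mouse 1 at SNI 3d.

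**Figure D3:**
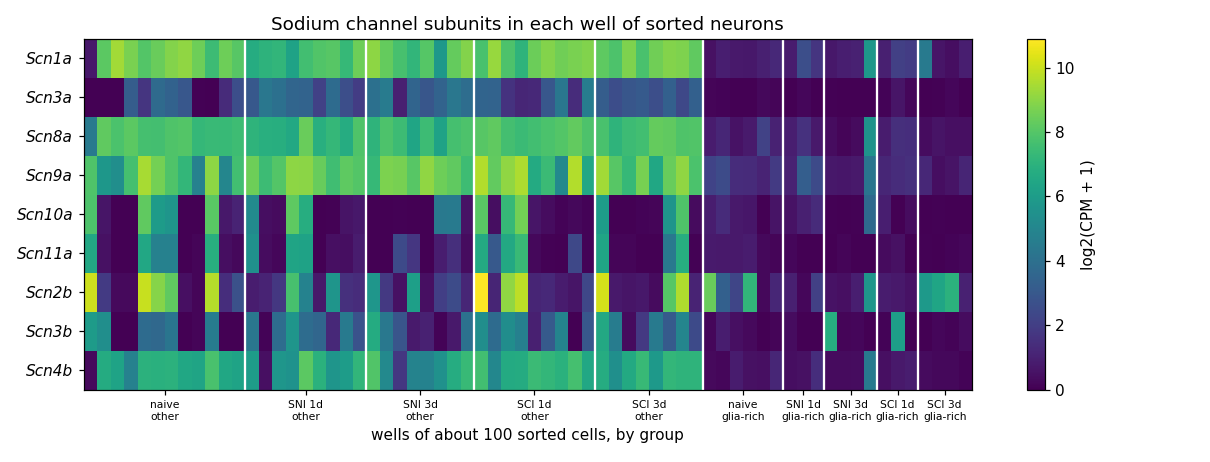
Log2(CPM + 1) of each subunit (rows) in each of 66 wells of sorted cells (columns), grouped by condition, with the 46 wells that were not glia-rich on the left and the 20 glia-rich wells on the right. Scn1a, Scn8a, Scn9a and Scn4b are bright in nearly all wells on the left, Scn10a, Scn11a and Scn2b in a shared few, and the rows are mostly dark on the right, where Scn2b was at or above 10 CPM in 6 wells and each other subunit in at most 2.

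No subunit changed in sorted neurons against naive mice at an adjusted p under 0.1 by edgeR with 2 RUVr factors over all 22 mice. The counts were 0 of 9 in all 4 groups. In the order SNI day 1, SNI day 3, SCI day 1 and SCI day 3, 0.685%, 0.706%, 0.017% and 0% of 23507 genes were called. At an unadjusted p under 0.05 the counts were 2, 3, 3 and 0 of 9, against 15%, 12.7%, 12.7% and 9.39% of all genes. DESeq2 with the same factors called 2 (Scn3a higher, Scn2b lower), 4 (Scn2b, Scn8a, Scn10a and Scn11a, all lower), 1 (Scn3a higher) and 0 members, with 6.95%, 9.95%, 5.3% and 5.42% of all genes called. Without the glia-rich wells edgeR called 1 (Scn3a higher), 1 (Scn3a higher), 0 and 0 members, with 8.17%, 7.57%, 0.217% and 0% of genes called. All 4 comparisons share the naive mice. Values of an injured group are given for FACS2018 mice 1 and 2 and then for FACS mice 1 and 2. Atf3 rose at SNI 1d (3.81, SE 0.655, edgeR adjusted p = 0.0336) and SNI 3d (3.09, SE 0.638, adjusted p = 0.0771), and stood at 1.21 (SE 0.620) at SCI 1d and 1.31 (SE 0.618) at SCI 3d.

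Scn3a, the Nav1.3 subunit, was the member with the smallest p at SNI 1d and SCI 1d. In naive mice it was read at 0 to 4.93 CPM with a median of 2.87, the FACS2018 naive mouse labelled day 3 having no read. It was at 9.58, 12.0, 5.80 and 2.77 CPM at SNI 1d, at 0.0259, 10.8, 6.82 and 12.0 at SNI 3d, at 6.69, 1.49, 8.93 and 8.29 at SCI 1d and at 0.0690, 4.96, 5.65 and 6.95 at SCI 3d. The 0.0259 and 0.0690 were the mice with glia-rich wells only, and each injured group overlapped the naive mice.

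The log2 fold change of Scn3a was 2.80 at SNI 1d (SE 0.862, edgeR unadjusted p = 0.00407, adjusted p = 0.165) and 2.46 at SCI 1d (SE 0.837, unadjusted p = 0.00822, adjusted p = 0.265). At SNI 3d it was 1.34 (SE 0.863) and at SCI 3d 1.10 (SE 0.849). DESeq2 gave 2.71 at SNI 1d (adjusted p = 0.00383) and 2.46 at SCI 1d (adjusted p = 0.0140). Without any factor edgeR gave 1.62 at SNI 1d (SE 1.29, adjusted p = 0.742). Leaving out the SNI 3d mouse with glia-rich wells only gave 3.03 at SNI 3d (SE 0.836, edgeR adjusted p = 0.0903).

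Without the glia-rich wells Scn3a was read at 0 to 5.29 CPM in 6 naive mice. It was at 13.9, 13.7, 7.54 and 3.59 at SNI 1d, at 10.8, 8.30 and 13 at SNI 3d, at 9.40, 1.59, 11.5 and 10.8 at SCI 1d and at 6.62, 5.83 and 7.44 at SCI 3d. All mice at SNI 3d and SCI 3d then lay above all naive mice, which held for 3.75% and 1.15% of all genes tested, and the day 1 groups overlapped them. Scn3a was called at SNI 1d (log2 fold change 3.52, SE 0.788, edgeR adjusted p = 0.0228) and SNI 3d (3.12, SE 0.783, adjusted p = 0.0446), and was not at SCI 1d (2.69, SE 0.744, adjusted p = 0.148) or SCI 3d (2.48, SE 0.783, adjusted p = 0.233). In this fit the median log2 fold change of all genes was 0.40, 0.39, 0.38 and 0.31 in the 4 comparisons. With neither glia-rich wells nor factors, tried after seeing the data, Scn3a was not called at SNI 1d (1.80, SE 1.00, adjusted p = 0.437) or SNI 3d (1.95, SE 1.06, adjusted p = 0.465). Over all wells, the difference from naive in mean log2(CPM + 1) was taken within the FACS and FACS2018 sets. It was 0.17 and 3.50 at SNI 1d and 1.17 and 1.74 at SNI 3d. At SCI 1d it was 1.10 and 2.08 and at SCI 3d 0.70 and 1.28, higher in every set.

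The other tetrodotoxin-sensitive alpha subunits differed from naive in no main test. Scn1a had a naive range of 0.881 to 418 CPM with a median of 234, the 0.881 coming from the FACS2018 naive mouse labelled day 1. It was at 87.2, 114, 194 and 207 at SNI 1d, at 1.27, 343, 162 and 247 at SNI 3d, at 270.4, 211, 324 and 316 at SCI 1d and at 10.5, 193, 312 and 356 at SCI 3d. Its log2 fold change was 1.23 at SCI 1d (SE 0.486, edgeR unadjusted p = 0.0202, adjusted p = 0.295), and over all wells its difference from naive within the FACS and FACS2018 sets was 0.034 and 4.01. Leaving out that naive mouse turned the SNI 3d value of Scn1a from -0.13 (SE 0.525) to -1.73 (SE 0.343, edgeR adjusted p = 0.0192). Leaving out the SNI 3d mouse with glia-rich wells only gave 0.96 (SE 0.315, adjusted p = 0.130), and leaving out all glia-rich wells gave 0.54 (SE 0.339). The SCI 1d value was 0.059 (SE 0.324) without that naive mouse and 1.05 (SE 0.312, adjusted p = 0.153) without the glia-rich wells.

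Scn8a, the nodal subunit, was at 13.8 to 207 CPM in naive mice with a median of 163, the lowest again in that mouse. It was at 90.8, 105, 101 and 139 at SNI 1d, at 0.337, 170.0, 107 and 147 at SNI 3d, at 189, 176, 179 and 201 at SCI 1d and at 0.575, 131, 232 and 233 at SCI 3d. At SNI 3d the log2 fold change was -1.72 (SE 0.808, edgeR unadjusted p = 0.0457, adjusted p = 0.384), and DESeq2 called it (-1.84, adjusted p = 0.0986). It was -0.26 (SE 0.187) without the glia-rich wells, and at SCI 3d leaving them out turned it from -1.27 (SE 0.778) to 0.26 (SE 0.184). Leaving out the FACS2018 naive mouse labelled day 1 gave -2.20 (edgeR adjusted p = 0.0596), and leaving out the one labelled day 3 gave -1.53 (adjusted p = 0.071). Without the SNI 3d mouse that had glia-rich wells only it was -0.055 (SE 0.603).

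Scn9a was at 22.6 to 529 CPM in naive mice (median 134), 191 to 290.0 at SNI 1d, 0.986 to 320 at SNI 3d, 86.0 to 492 at SCI 1d and 1.01 to 349 at SCI 3d. The groups overlapped in all 4 comparisons. Its log2 fold changes were 0.11, -1.06, 0.70 and -0.70, with SE between 0.611 and 0.642. Once glia-rich wells were left out, the day 3 values turned to 0.47 (SE 0.458) after SNI and 0.51 (SE 0.456) after SCI.

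The tetrodotoxin-resistant pair varied widely among mice of 1 group. Scn10a was read at 0 to 206 CPM in naive mice with a median of 56.0. It was at 12.8, 68.5, 0.162 and 0.649 at SNI 1d, at 0.0519, 0.0145, 1.05 and 11.1 at SNI 3d, at 88.2, 199, 0.144 and 0.143 at SCI 1d and at 0.0230, 24.8, 0.0777 and 67.0 at SCI 3d. Each injured group held mice at or below 0.162 CPM, as did the naive group. The log2 fold change was -1.52 (SE 1.98), -5.24 (SE 2.74, edgeR unadjusted p = 0.0704), 0.41 (SE 1.86) and -2.13 (SE 2.05) in turn. DESeq2 called the SNI 3d value (-4.75, adjusted p = 0.0720), and without the glia-rich wells edgeR gave -3.49 (SE 2.73, adjusted p = 0.483).

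Scn11a ranged from 0.0186 to 63.4 CPM in naive mice with a median of 23.9. It was at 15, 21.0, 0.121 and 0.449 at SNI 1d and at 0.0519, 1.74, 0.948 and 0.796 at SNI 3d. It was at 34.2, 95.1, 0.0957 and 1.64 at SCI 1d and at 0.0460, 31.1, 0.0333 and 29.9 at SCI 3d. No SNI 3d mouse exceeded 1.74 CPM, while 1 naive mouse was at 0.780 and another at 0.0186, so these groups overlapped. At SNI 3d the log2 fold change was -4.95 (SE 2.21, edgeR unadjusted p = 0.0369, adjusted p = 0.359) and DESeq2 gave -4.90 (adjusted p = 0.0183), while without the glia-rich wells edgeR gave -3.92 (SE 2.25, adjusted p = 0.314). At SCI 3d it was -0.89 (SE 1.66) over all wells and 0.21 (SE 1.82) without the glia-rich ones. Nociceptor genes moved with this pair, holding medians of 0.205% of reads in naive mice, 0.0395% at SNI 1d, 0.0212% at SNI 3d, 0.144% at SCI 1d and 0.0518% at SCI 3d, and their part in these values was not tested. The list ranged from 0.00352% to 1.58% in naive mice and reached at most 0.0348% at SNI 3d, where 1 of its 6 genes was at 0 in all mice, as was 1 at SCI 3d.

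Among beta subunits Scn2b had the steepest estimates after SNI. In naive mice it was read at 0.186 to 820 CPM with a median of 189. It was at 1.00, 49.4, 17.3 and 1.75 at SNI 1d and at 0.882, 19.7, 34.3 and 2.44 at SNI 3d, against 602, 517, 0.981 and 1.62 at SCI 1d and 124, 455, 0.399 and 254 at SCI 3d. All 8 SNI mice lay below 5 of the 6 naive mice, the other naive mouse being the lowest of the 14. Without the glia-rich wells 4 of the 6 naive mice lay above all 7 SNI mice, 1 lay within their range at 3.55 CPM and 1 below it at 0.199 CPM. The 124 CPM at SCI 3d came from the mouse with glia-rich wells only. The log2 fold change was -4.16 at SNI 1d (SE 1.91, edgeR unadjusted p = 0.0416, adjusted p = 0.313) and -4.79 at SNI 3d (SE 1.98, unadjusted p = 0.0254, adjusted p = 0.321), and DESeq2 called both (adjusted p = 0.0575 and 0.0126). At SCI 1d and SCI 3d it was -0.16 (SE 1.64) and -0.41 (SE 1.63), and without the glia-rich wells 0.85 (SE 1.86) and 0.52 (SE 1.86). Without those wells the SNI values were -2.88 (SE 1.92, edgeR adjusted p = 0.397) and -3.24 (SE 2.20, adjusted p = 0.410). Over all wells, the difference from naive within the FACS and FACS2018 sets was -3.27 and -4.63 at SNI 1d and -2.64 and -5.32 at SNI 3d, but -4.91 and 1.17 at SCI 1d and -1.86 and -0.061 at SCI 3d.

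Scn2b was also compared within the wells that held Scn10a. Among the 11 such wells of naive and SCI mice (8 mice), Scn2b lay between 255 and 1902 CPM, with a median of 811, and was 2.32 to 18.4 times Scn10a. Among the 5 such wells of SNI mice (3 mice), it lay at 0.824, 27.4, 213, 3.06 and 4.55 CPM and was 0.0226 to 0.735 times Scn10a. The 2 sets of wells did not overlap in either measure. With SNI lower, the same held for 0.142% of 23161 genes in level and 0.013% as a multiple of Scn10a. A gene at 0 in any of the 11 wells could not meet this rule. Low genes thus count against these shares, which do not measure how rare the pattern is. Scn10a itself was 36.5, 111, 290.2, 20.3 and 20.9 CPM in these 5 wells, and 49.3 to 381 CPM in the other 11. Nociceptor genes held 0.137% to 3.48% of reads in the 3 wells of SNI 1d and 0.120% to 3.73% in the other 11. In the 2 wells of SNI 3d they held 0.0337% and 0.0422%. Scn11a was at 43.2 to 80.1 CPM at SNI 1d, 0.854 and 1.75 at SNI 3d and 19.9 to 167 in the other 11. The part of this difference in the Scn2b values was not tested. In the wells without Scn10a, Scn2b was at or above 10 CPM in 3 of 12 from SNI mice, at up to 71.0, and in 0 of 18 from naive and SCI mice, at up to 5.60. The wells were divided after their values were seen and several share a mouse, so this is a description without a test.

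**Figure D4:**
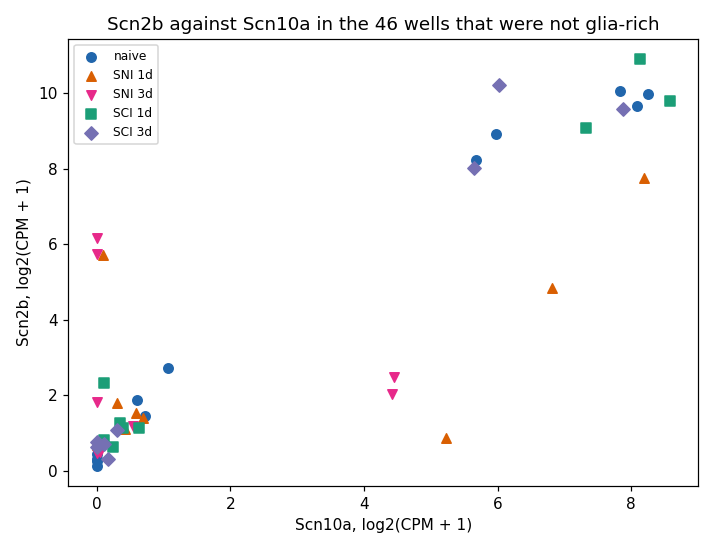
Scn2b against Scn10a, both as log2(CPM + 1), in the 46 wells of sorted neurons that were not glia-rich, coloured by group. Naive and SCI wells with Scn10a sit at the upper right with Scn2b at 255 CPM or more, and the 5 SNI wells with Scn10a sit below them at 213 CPM or less.

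Scn3b, a beta subunit found mainly in small neurons, was at 0 to 37.6 CPM in naive mice (median 9.41) and overlapped them in every injured group, at 5.15 to 19.9, 0.701 to 61.6, 2.23 to 24.6 and 0.115 to 44.9 CPM at day 1 and day 3 of SNI and then of SCI. The 61.6 came from the SNI 3d mouse with glia-rich wells only. Scn4b was at 0.277 to 124.5 CPM in naive mice (median 66.0) and at 71.4, 114, 103 and 112 at SCI 1d, where its log2 fold change was 1.20 (SE 0.571, edgeR unadjusted p = 0.0479, adjusted p = 0.386). Leaving out the FACS2018 naive mouse labelled day 1 gave 0.21 (SE 0.570) there, and over all wells the difference from naive was 0.38 in the FACS set and 3.62 in the FACS2018 set. It ranged from 22.4 to 83.8 CPM at SNI 1d, from 0.389 to 97.1 at SNI 3d and from 0.299 to 123 at SCI 3d. Its log2 fold change at SNI 3d was -0.68 (SE 0.611), and 0.30 (SE 0.441) without the glia-rich wells. At SCI 3d the same pair of values was -0.57 (SE 0.594) and 0.73 (SE 0.437).

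**Figure D5:**
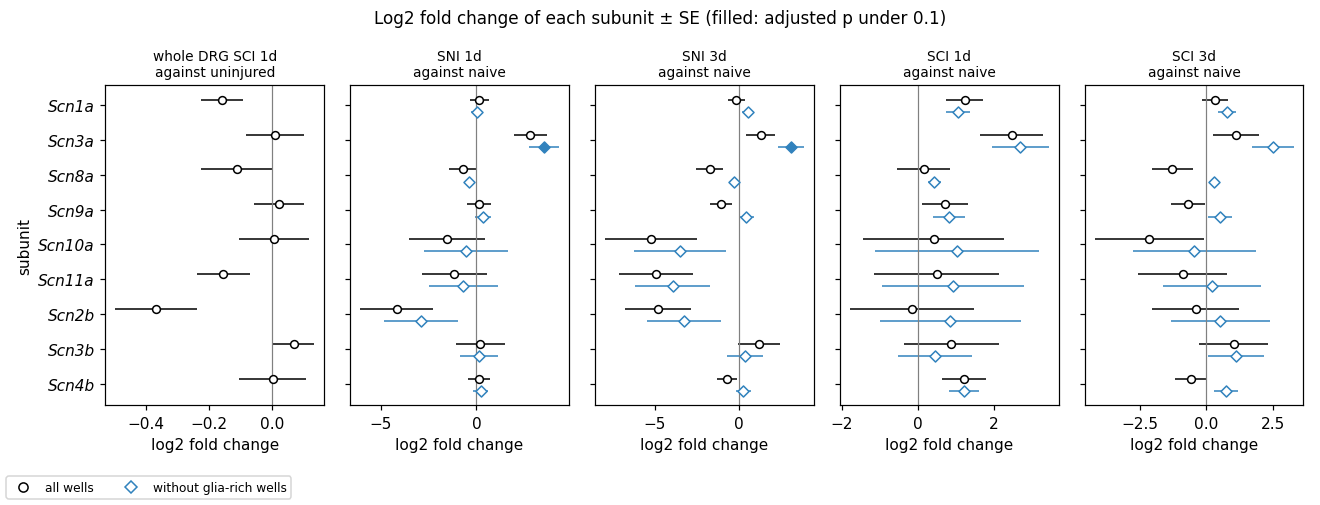
Log2 fold change of each subunit with its SE in whole DRG after SCI and in sorted neurons against naive mice, over all wells (circles) and without glia-rich wells (diamonds), filled where the adjusted p was under 0.1. The filled symbols are Scn3a at SNI 1d and SNI 3d without glia-rich wells.

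SNI and SCI were also compared directly at each day. edgeR called 0 of 9 members in both, with 0% of genes called, and 0 and 1 member (Scn2b at day 3) had an unadjusted p under 0.05, against 10.2% and 8.46% of genes. DESeq2 called none of the 9 either, with 4.83% and 4.22% of genes called. Scn2b differed by -4.00 at day 1 (SE 1.95, edgeR adjusted p = 0.493) and by -4.38 at day 3 (SE 1.98, unadjusted p = 0.0393, adjusted p = 0.584). Within the FACS and FACS2018 sets its difference in mean log2(CPM + 1) was 1.64 and -5.80 at day 1. At day 3 it was -0.78 and -5.26, so the sets had opposite signs at day 1. Over all wells Scn3a differed by 0.34 (SE 0.910) and 0.24 (SE 1.04), less than its SE, and at day 1 without the glia-rich wells by 0.83 (SE 0.770).

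At day 1 all 4 SNI mice lay below all 4 SCI mice for Scn1a and Scn8a, as they did for 1.76% of genes. The differences were -1.07 for Scn1a (SE 0.534, edgeR adjusted p = 0.499) and -0.86 for Scn8a (SE 0.718, adjusted p = 0.739). For Scn1a the groups overlapped once the glia-rich wells were left out. It then reached 267 CPM at SNI 1d and was as low as 225 CPM at SCI 1d (-1.05, SE 0.347, edgeR adjusted p = 0.240). Without the glia-rich wells Scn8a was read at 131, 119.6, 131 and 179.6 CPM at SNI 1d and at 267, 188, 232 and 261 at SCI 1d. The groups did not overlap, which held for 2.02% of genes, and Scn8a was called lower at SNI 1d than at SCI 1d (-0.79, SE 0.185, edgeR adjusted p = 0.0839), 1 of 9 members against 0.889% of genes. With neither glia-rich wells nor factors, tried after seeing the data, it was not called (-0.76, SE 0.452, adjusted p = 0.592).

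At day 3 the fit without glia-rich wells called none of the 9 and 0% of genes. Scn8a was then at 170.3, 125.1 and 159 CPM at SNI 3d and at 175, 239.9 and 249 at SCI 3d (-0.53, SE 0.213, edgeR unadjusted p = 0.0246, adjusted p = 0.669). All 3 SNI mice lay below all 3 SCI mice, as they did for 5.47% of genes. Scn3a was higher in all 3 SNI 3d mice (8.30 to 13 CPM) than in all 3 SCI 3d mice (5.83 to 7.44 CPM), as were 6.8% of genes, with a difference of 0.64 (SE 0.885). Scn3b differed by 0.18 (SE 1.45) at day 3 over all wells and by -0.71 (SE 1.25) without the glia-rich ones.

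A pair of gene lists that work with these channels were counted in the same fits. Of 18 partners, including Fgf11 to Fgf14, which bind alpha subunits, and ankyrins, all were tested and none was called by edgeR in the 7 comparisons. Of all genes, 2.32% were called in whole DRG and at most 0.706% in sorted neurons. At SCI 3d and between SNI and SCI 0% were called, so a count of 0 there says little about the list. Among the genes with the smallest p in whole DRG was Calm3 (log2 fold change -0.18, edgeR adjusted p = 0.413). In sorted neurons such genes were Ank2 (-0.59, adjusted p = 0.159) and Fgf11 (1.00) at SNI 1d, S100a10 (1.18, adjusted p = 0.147), which carries Nav1.8 to the membrane, and Ank3 (0.91), which anchors channels at nodes, at SNI 3d, Fgf12 (1.49) at SCI 1d, and Ank2 (-0.57) and Sptbn4 (-2.27) at SCI 3d. Between SNI and SCI they included Fgf12 (-1.66) at day 1 and S100a10 (1.20) and Ank3 (0.71) at day 3. In the fit that left out glia-rich wells 1 of the 18 was called at SNI 1d, lower, and 4 at SNI 3d, 2 higher and 2 lower, where 8.17% and 7.57% of all genes were called. Ank2 was called lower at SNI 1d (-0.64, edgeR adjusted p = 0.0402). At SNI 3d Ank3 (1.20, adjusted p = 0.0358) and S100a10 (0.96, adjusted p = 0.0601) were called higher and Calm2 (-0.58) lower. No partner was called in the other comparisons of that fit. These calls were made with the 2 RUVr factors. Without factors the same wells gave 39 and 14 called genes at SNI 1d and SNI 3d, against 1848 and 1712 with them.

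Of 13 genes of the node of Ranvier, again all were tested and none was called by edgeR in any of the 7 comparisons, beside the same shares of all genes. The smallest p in whole DRG were those of Nrcam (0.12) and Kcnq3 (0.14). In sorted neurons they were those of Kcnq3, a subunit of the M-type potassium channel, at SNI 1d (2.98, edgeR adjusted p = 0.119), SCI 1d (2.07) and SCI 3d (2.08), with Kcna1 (-1.23), Kcna2 (0.77) and Nrcam (-1.12) beside it, and Kcna1 (-1.19) and Cntnap1 (-1.79) at SNI 3d. Between SNI and SCI they were Kcna2 (-1.74 and -1.07) and Kcna1 (-1.04 and -0.86) at day 1 and day 3. With glia-rich wells left out, 3 of the 13 were called at SNI 1d, 2 higher and 1 lower, and 3 at SNI 3d, all higher, beside the same 8.17% and 7.57% of all genes. Kcnq3 was called higher at SNI 1d (2.77, edgeR adjusted p = 0.0142) and SNI 3d (1.91, adjusted p = 0.0807), with L1cam (0.69) at SNI 3d. Cntnap2 was called lower at SNI 1d (-0.99, adjusted p = 0.0734). The median log2 fold change of all genes in this fit was 0.40 at SNI 1d and 0.39 at SNI 3d. These calls too were made with the 2 RUVr factors, without which only 39 and 14 genes were called.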

How the data were processed

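Per the labels and the study's methods, the authors trimmed reads with Cutadapt, aligned them to GRCm38 with STAR 2.5.3a and counted reads per gene with HTSeq 0.6.1. The deposited count values are whole numbers without normalization. The 5 rows of each file that name no gene (33.1% to 66.9% of reads) were left out. Other deposited tables hold the authors' fold changes and p-values and 123 columns of values per sample, and none were used here. Symbols and exon lengths came from GENCODE vM21.

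The 3 wells of a mouse were summed. Low genes were dropped (mean count under 10 in whole DRG, under 20 reads in all sorted mice) and the rest tested with edgeR 4.0.16 in R 4.3.3 (TMM, quasi-likelihood F-test, Benjamini-Hochberg, called at adjusted p under 0.1), in sorted neurons with 2 RUVr factors from centred deviance residuals. SE is the log2 fold change divided by the root of F. Scripts were tested on simulated data, where in 1 setting with RUVr factors false calls outnumbered the changed genes found. The edgeR calls of Scn3a and Scn8a in sorted neurons were made with these factors and not without them. Alternatives were DESeq2 1.42.0, other normalization, filters and factors, the FACS or FACS2018 set, a replicate block, wells and single mice left out. Values of wells are CPM without TMM. The p-values measure the spread between mice, and in sorted neurons what was left of it after 2 factors estimated from the same mice. All 22 sorted mice were used, since the labels do not say which ones the study left out.

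The members and lists were chosen with earlier results of these data known. Named were the 9 members, the called genes of the partner and node lists or else the 2 with the smallest p, as far as these are reported here, and the 3 genes most correlated with each member over wells. Some genes of these lists are not reported here.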

Additional observations from a re-analysis of the deposited data

Results flagged for a closer look

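In 18 of 63 groups of 4 to 6 mice, 1 mouse lay far from the others by Dixon's test at the 95% level, where chance flags about 1 in 20 groups. The same few mice recurred. Uninjured whole DRG mouse 1 was high for Scn1a (393 CPM), Scn8a (348 CPM) and Scn2b (156 CPM). SCI whole DRG mouse 3 was high for Scn8a (335 CPM) and SCI mouse 2 low for Scn9a (426 CPM).

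In sorted neurons the 2 mice with glia-rich wells only stood out. The SNI 3d one was low for Scn1a (1.27 CPM), Scn8a (0.337 CPM) and Scn9a (0.986 CPM), and the SCI 3d one for Scn3a (0.0690 CPM), Scn8a (0.575 CPM), Scn9a (1.01 CPM) and Scn4b (0.299 CPM). The FACS2018 naive mouse labelled day 1 was low for Scn1a (0.881 CPM), Scn8a (13.8 CPM) and Scn4b (0.277 CPM). FACS naive mouse 1 labelled day 1 was flagged for Scn2b (0.186 CPM), FACS2018 SNI 1d mouse 2 was high for Scn9a (290.0 CPM), and FACS SCI 1d mouse 2 was low for Scn3b (2.23 CPM).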

How the results depend on the processing

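Of 612 member values under alternative fits, 558 kept direction and call within their error, 28 moved, 10 became called and 16 turned direction, and of 576 values with 1 mouse left out the counts were 543, 25, 4 and 4. A value within 1 SE of 0 and uncalled in both fits was given no direction, a rule set after the data were seen. DESeq2 called 2 members at SNI 1d, 4 at SNI 3d and 1 at SCI 1d, and edgeR without glia-rich wells called 1 at SNI 1d, 1 at SNI 3d and 1 between SNI 1d and SCI 1d, where the fit over all wells called 0. With 1 mouse left out, 0 to 2 members were called at SNI 3d and 0 elsewhere.

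The log2 fold change of Scn8a at SNI 1d turned to 0.39 with uncentred factors and 0.11 with naive mice of the same day only. At SNI 3d Scn9a turned to 0.13 without factors and 0.22 with the FACS or FACS2018 set in their place. It was 0.47 without glia-rich wells and 0.33 with neither wells nor factors. Scn4b turned to 0.13 with the set and 0.30 without glia-rich wells. At SCI 3d, in those 4 fits in turn, Scn8a was 0.052, 0.12, 0.26 and 0.089, and Scn9a 0.097, 0.21, 0.51 and 0.38. With single mice left out, Scn9a ranged from -1.60 to 0.60 and Scn4b from -1.83 to 0.70 at SNI 3d, and Scn8a from -1.76 to 0.30 and Scn9a from -1.80 to 0.63 at SCI 3d. The cause was not tested.

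Same-numbered mice deviated together at r = -0.158, 0.0528, -0.0311 and 0.257 in whole DRG. In sorted neurons mice of the same set and number had a median of 0.0977 (-0.0267 to 0.419), against -0.039 for other pairs. The main fits did not pair mice by number, and whether the numbers mark pairs was not tested. With the replicate block, 0 of 9 members were called in any of the 7 comparisons, and the count over all genes in whole DRG went from 408 to 127. Over all genes edgeR called 161 at SNI 1d and 166 at SNI 3d, against 0 and 0 without factors and 1538 and 2249 by DESeq2.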
